A study of Homo sapiens with 6 samples.

Results

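The genes described here encode the MCM replicative helicase and the proteins that place it on DNA and switch it on. They were chosen by gene symbol, as 10 of the 19470 genes in the count table, and all 10 passed the filter on low counts, which 13066 genes passed. RNA-seq was performed on HCCC9810 cells, an established human cholangiocarcinoma (CCA) line, after 24 h with 20 μM isolinderalactone (ILL) or with vehicle (DMSO), in 3 libraries per group. Both groups carried the wild-type genotype of the line, so that ILL was the only labelled difference. The authors deposited read counts per gene and FPKM values, which are counts scaled by gene length and by the total of the library. ILL is a sesquiterpene lactone that the study tested as an inhibitor of CCA cell growth, and the question addressed was how the licensing machinery of these cells differed in mRNA level with ILL.

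Before a cell replicates its DNA, each origin is licensed. The origin recognition complex (ORC) and CDC6 sit on the DNA, CDT1 brings the ring made of MCM2, MCM3, MCM4, MCM5, MCM6 and MCM7, and a pair of rings is closed around the double helix in an inactive form. At the start of S phase the kinases CDC7-DBF4 and cyclin E-CDK2 allow CDC45 and the GINS complex to join each ring, MCM10 helps to set it in motion, and geminin and CDT1 degradation prevent a second round of loading. Transcription of many of these genes is driven by E2F factors and is high in proliferating cells.

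Total counts ranged from 34282764 to 37758569 per library. No pair of libraries within a group was the same library deposited again, since pairs differed beyond sampling (chi-square divided by its degrees of freedom, 5.15 to 11.8). The labels do not say whether the libraries of a group came from separate cultures, and p-values measure the spread between these libraries, which may be technical. The keratins of the biliary epithelium were abundant (KRT7 at 1780 and KRT19 at 2130 CPM, which are counts scaled to the library total, in controls). The 7 biliary markers together were at 9020 to 9210 CPM in controls and 8320 to 8750 CPM with ILL. Single markers moved in both directions within this sum, with 4 lower and 2 higher of 6 tested at an adjusted p under 0.05 (edgeR), from -0.82 for KRT18 to 0.64 for KRT7 on the log2 scale. Sums of markers of other cell types were 29.3 to 34 against 27.2 to 42.2 CPM for 6 hepatocyte genes, 12.4 to 14.4 against 16.4 to 18.1 CPM for 6 fibroblast genes and 1.06 to 1.69 against 1.69 to 1.88 CPM for 5 endothelial genes. The sum of 6 leukocyte genes was 38.7 to 43.1 CPM in controls and 111 to 115 CPM with ILL, nearly all from CD68, a lysosomal protein, while PTPRC, which marks leukocytes in general, had 9 or fewer counts in every library. The 10 genes with the most counts took 5.20% to 5.45% of control counts and 8.12% to 8.25% of ILL counts. The part of these differences in the results below was not tested.

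All 10 licensing genes were lower with ILL, by between 3.73-fold (MCM5) and 11.4-fold (MCM10), and each was called, which required an adjusted p below 0.05 together with a fold change below 0.5. Across all genes tested, 11.4% were called lower by the same rule and 12.5% were called higher. The median log2 fold change of the 10 genes was -2.47, against 0.00 for all genes tested. In each of the 10 genes every ILL library lay below every control library, which 38.0% of all genes tested showed. Summed, these genes took 0.145% to 0.147% of the counts of a control library and 0.0250% to 0.0273% of an ILL library. The narrowest gap between groups was in MCM5, whose lowest control library still had 3.78 times the FPKM of its highest ILL library. In bulk RNA, fewer cells that express these genes and less of their RNA per cell cannot be told apart.

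**Figure D1:**
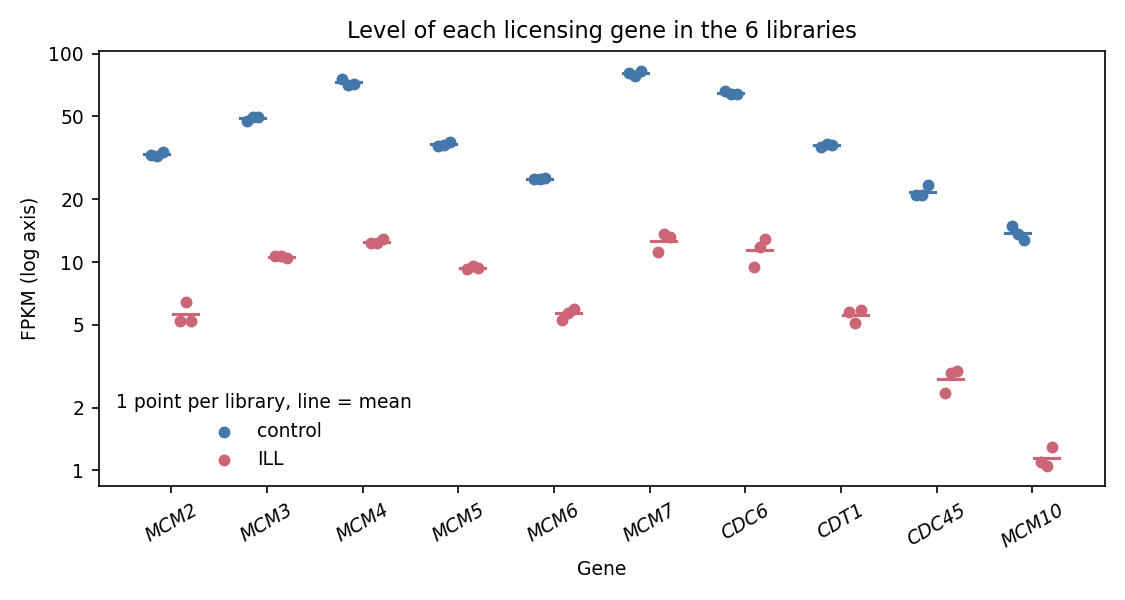
FPKM (log axis) of the 10 licensing genes in each of the 6 libraries, with 1 point per library and a line at the group mean (n = 3). The control libraries (blue) of every gene lie above its ILL libraries (red), with group means from 80.8 (MCM7) to 13.8 (MCM10) in controls and from 12.7 to 1.15 with ILL.

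The subunits of the ring came first. MCM7, part of the ring's catalytic core together with MCM4 and MCM6, was at 80.8, 78.5 and 83.0 FPKM in the control libraries and at 11.2, 13.6 and 13.2 FPKM with ILL. The control libraries lay close together, and the first ILL library was the lowest of its group. MCM7 fell by 2.60 on the log2 scale (SE 0.07, adjusted p = 9.7e-21, quasi-likelihood test of edgeR), the largest decrease of the ring subunits, to 16.5% of control. MCM4 was at 75.9, 71.1 and 71.3 FPKM in controls and at 12.3, 12.3 and 12.9 FPKM with ILL. Its ILL libraries were nearly equal, and it fell by 2.47 (SE 0.06, adjusted p = 9.6e-22). MCM6 was at 25, 24.9 and 25.3 FPKM in controls and at 5.29, 5.72 and 5.98 FPKM with ILL. It had the lowest control level of the 6 subunits and fell by 2.08 (SE 0.07, adjusted p = 8e-19).

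The remaining subunits, MCM2, MCM5 and MCM3, form the regulatory side of the ring, where the gate through which DNA enters lies. MCM2, which also binds histones, was at 32.5, 32.3 and 33.9 FPKM in controls and at 5.21, 6.46 and 5.24 FPKM with ILL, where the second library was the highest. It fell by 2.47 (SE 0.08, adjusted p = 3.1e-19), to 18.0% of control. MCM5, which meets MCM2 at the gate, was at 36.0, 36.4 and 37.8 FPKM in controls and at 9.21, 9.52 and 9.37 FPKM with ILL. Its libraries were tight in both groups, and it fell by 1.90 (SE 0.06, adjusted p = 2.5e-19), the least of the 10 genes, to 26.8% of control. MCM3, the subunit through which the ring contacts ORC and CDC6 during loading, was at 47.6, 49.9 and 49.4 FPKM in controls and at 10.7, 10.7 and 10.4 FPKM with ILL. It fell by 2.14 (SE 0.06, adjusted p = 2.5e-20), to 22.7% of control.

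The loading factors followed. CDC6, the ATPase that joins ORC to receive the ring, was at 66.2, 64.1 and 63.9 FPKM in controls and at 9.43, 11.8 and 12.9 FPKM with ILL. The ILL libraries were the most scattered of the 10 genes, with an SD of 16% of the mean CPM. CDC6 fell by 2.44 (SE 0.08, adjusted p = 7.2e-19), and its log2 fold change lay between -2.54 and -2.31 when single libraries were omitted. CDT1, which carries the ring to ORC and CDC6, was at 35.7, 37 and 36.6 FPKM in controls and at 5.78, 5.12 and 5.87 FPKM with ILL. Neither group was scattered, and CDT1 fell by 2.64 (SE 0.07, adjusted p = 2.1e-20), to 16.1% of control.

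The genes of helicase activation had the largest decreases of the 10. CDC45, which joins the ring and GINS to form the moving helicase, was at 21.0, 20.9 and 23.3 FPKM in controls and at 2.36, 2.93 and 2.99 FPKM with ILL. It fell by 2.91 (SE 0.10, adjusted p = 1e-18), to 13.3% of control. MCM10, which is no ring subunit in spite of its name and acts on the assembled helicase, was at 14.9, 13.6 and 12.7 FPKM in controls and at 1.10, 1.05 and 1.30 FPKM with ILL. MCM10 fell by 3.51 (SE 0.09, adjusted p = 2.1e-20), to 8.78% of control, and 27 of the 13066 genes tested had a lower log2 fold change. The decrease was 2.78 with limma on log2(FPKM + 1), where the added 1 is close to the level of this gene with ILL. The smallest count of any of the 10 genes was MCM10's 171 in ILL replicate 2, with an exact Poisson interval (95%, counting error only) of 146 to 199.

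**Figure D2:**
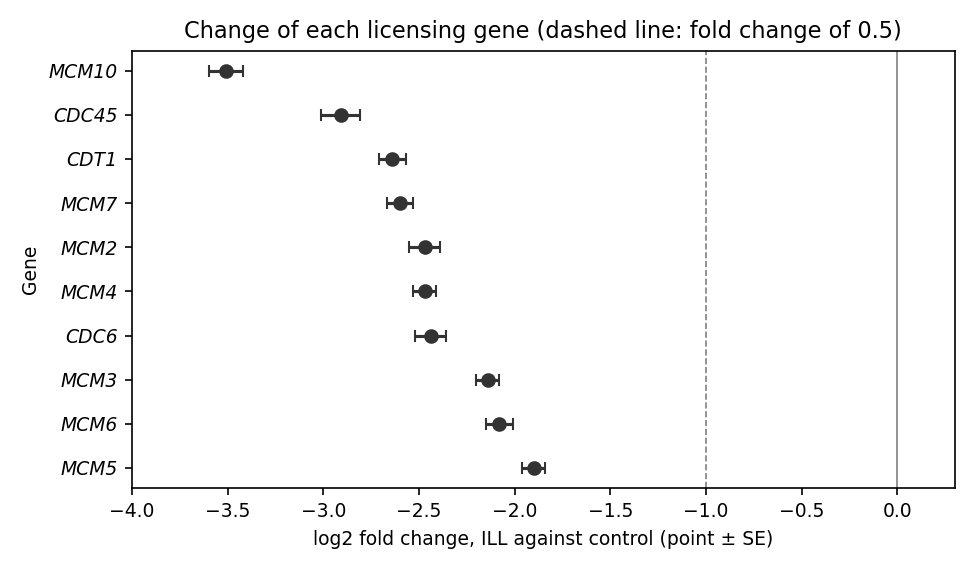
Log2 fold change of each licensing gene with ILL against control, with its SE, from edgeR (3 libraries per group), ordered by size. Values run from -3.51 for MCM10 to -1.90 for MCM5, and all lie beyond the dashed line at a fold change of 0.5.

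**Figure D3:**
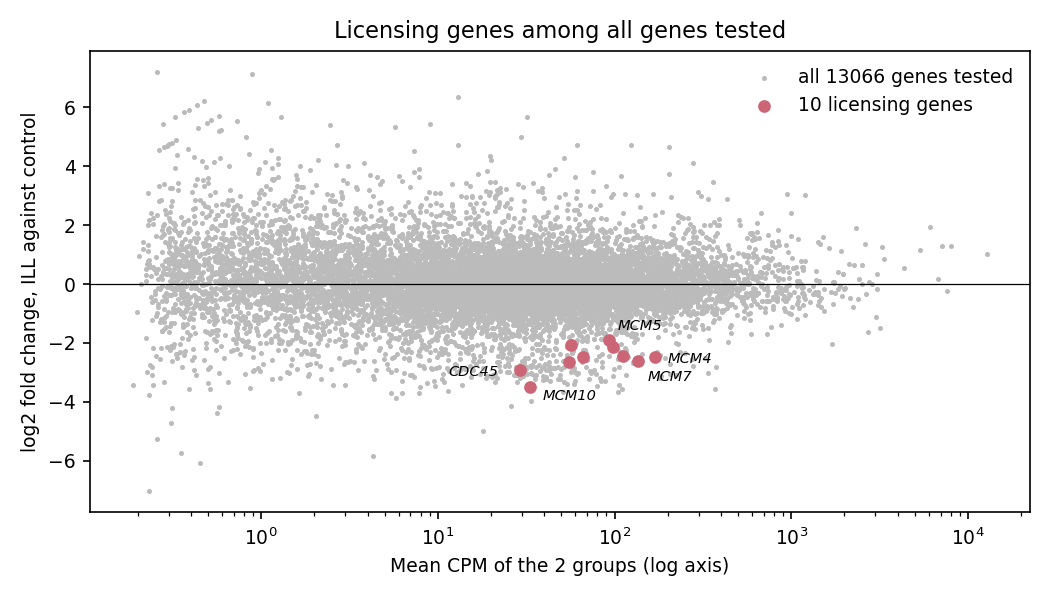
Log2 fold change against mean CPM of both groups (log axis) for all 13066 genes tested (grey), with the 10 licensing genes in red and 5 of them named. The licensing genes lie in the middle to upper range of expression, and no more than 3.84% of genes have a log2 fold change below that of any of them.

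The levels were then compared between genes, which is possible on the FPKM scale only. In controls the order from high to low was MCM7, MCM4, CDC6, MCM3, MCM5, CDT1, MCM2, MCM6, CDC45 and MCM10, and MCM5 and CDT1 were the only neighbours whose libraries overlapped. With ILL the order was MCM7, MCM4, CDC6, MCM3, MCM5, MCM6, MCM2, CDT1, CDC45 and MCM10. Here the libraries of MCM7, MCM4, CDC6 and MCM3 overlapped from each neighbour to the next, as did those of MCM6, MCM2 and CDT1. The highest group mean was 5.87 times the lowest in controls and 11 times the lowest with ILL. Within the ring the same ratio was 3.22 in controls and 2.25 with ILL.

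Since the ring holds a single copy of each subunit, the share of each subunit in the summed MCM2-7 FPKM was compared. The sum was 298, 293 and 301 FPKM in the control libraries and 54.0, 58.2 and 57.1 FPKM with ILL. MCM7 made up 27.2% ± 0.428 (SD, n = 3) of the sum in controls and 22.4% ± 1.39 with ILL, and MCM4 made up 24.5% ± 0.917 and 22.2% ± 0.942. The share of MCM5 was 12.4% ± 0.249 in controls and 16.6% ± 0.386 with ILL, the largest gain, at 4.25 percentage points. MCM3 stood at 16.5% ± 0.517 in controls and 18.8% ± 0.953 with ILL, and MCM6 at 8.44% ± 0.0582 and 10% ± 0.381. For these 5 subunits the libraries of the groups did not overlap (exact two-sided permutation test, p = 0.1 each, the smallest p that 3 libraries against 3 allow, and adjusted p = 0.12 over 6 subunits). The share of MCM2 was 11.1% ± 0.178 in controls and 9.98% ± 1 with ILL, and its libraries overlapped (exact permutation test, p = 0.3). The shares add up to a whole, so that a gain of 1 subunit lowers the others.

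**Figure D4:**
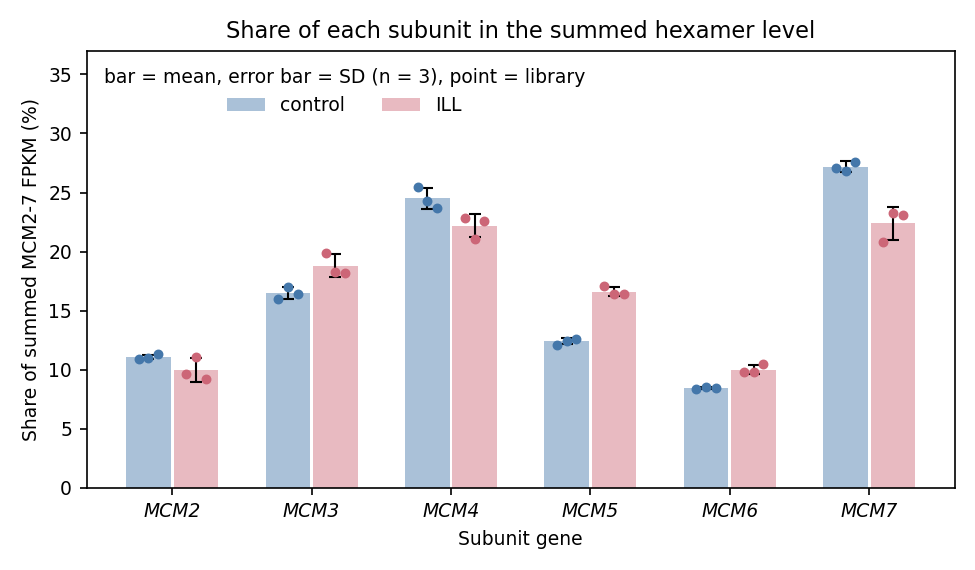
Share of each subunit gene in the summed MCM2-7 FPKM (percent), as the mean (bar), SD (error bar, n = 3) and single libraries (points) of control (blue) and ILL (red). MCM7 and MCM4 have the largest shares in both groups, and the share of MCM5 is 12.4% in controls and 16.6% with ILL.

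The loading and activation genes were set against the ring in the same way, as a description. CDC6 stood at 131% ± 2.93 of the mean subunit FPKM in controls and 121% ± 15.5 with ILL (SD, n = 3), and the libraries of the groups overlapped. CDT1 stood at 73.6% ± 1.98 and 59.5% ± 5.99, CDC45 at 43.9% ± 2.36 and 29.3% ± 2.76, and MCM10 at 27.8% ± 2.38 and 12.2% ± 1.40. In these 3 genes every ILL library lay below every control library, and the gap was widest for MCM10.

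CDT1 is held in check by geminin (GMNN), and both were lower with ILL. GMNN was at 28.7, 27.3 and 23.5 FPKM in controls and at 3.69, 3.38 and 3.42 FPKM with ILL, and fell by 2.85 (SE 0.08, adjusted p = 2.9e-20 from edgeR). The ratio of CDT1 to GMNN FPKM was 1.25, 1.35 and 1.55 in the control libraries and 1.57, 1.51 and 1.72 with ILL. These values overlap, and the difference of 0.21 in the mean log2 ratio did not pass an exact two-sided permutation test (p = 0.2, with 0.1 the smallest possible).

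The rest of the pathway was examined with 6 hand-written lists holding 63 genes, all of which were tested. The lists reach beyond origin licensing, with 4 genes listed as MCM paralogues outside the ring and 13 E2F and pocket protein genes. Of the 63 genes, 42 were called lower, against 11.4% of all genes tested, which is the background for the count of each list. A log2 fold change below 0 was found in 61 of the 63 and in 6545 of the 13066 genes tested, and the median of the 63 was -1.95. At an adjusted p under 0.05 without the fold change cutoff 55 were lower, against 36.9% of all genes tested, and 2 were higher, against 36.2%. The 2 higher genes were CUL4B and RBL2, at log2 fold changes of 0.45 and 0.24, and neither reached a fold change of 2.

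Among the 6 lists, origin firing was the one in which every gene, 15 of 15, was called lower, with a median of -2.51 and a range from -3.33 to -1.44. TICRR, which brings TOPBP1 to the origin, had 787, 715 and 656 counts in controls and 57, 102 and 45 with ILL, a log2 fold change of -3.33 (SE 0.18, adjusted p = 3.3e-14 from edgeR). CDC7, the kinase that phosphorylates the ring, had 1162, 959 and 913 counts in controls and 132, 106 and 83 with ILL. It fell by 3.17 (SE 0.13, adjusted p = 1.7e-16). CCNE1, which encodes cyclin E1, fell by 2.86 and GINS2, a subunit of the complex that joins CDC45 on the ring, fell by 2.83. Of the 15 fork proteins 13 were called lower, with a median of -2. CLSPN, a checkpoint mediator that travels with the fork, fell by 3.03, and RFC3 of the clamp loader and the nuclease FEN1 each fell by 2.58. WDHD1, which links helicase and polymerase, fell by 2.42.

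Of the 7 genes of the ORC list, 3 were called lower, and the median was -0.97. ORC1, the subunit whose protein rises and falls with the cell cycle, had 1009, 836 and 917 counts in controls and 95, 113 and 148 with ILL, and fell by 2.89 (SE 0.13, adjusted p = 9.4e-16 from edgeR). ORC6 fell by 2.85 (SE 0.11) and ORC5 by 1.16 (SE 0.08). ORC4 had 1956, 1830 and 1520 counts in controls and 1639, 1411 and 1546 with ILL, and its groups overlapped, at a log2 fold change of -0.14 (SE 0.08, adjusted p = 0.10, and 0.013 without control replicate 3). LRWD1, which stabilises ORC on chromatin, was at -0.11 (SE 0.08, adjusted p = 0.24). ORC2 and ORC3, named after their values were seen, fell by 0.97 and 0.55 and stayed within a fold change of 2. Whether the subunits differed from each other was not tested.

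Among the 9 genes of licensing inhibitors and turnover, 5 were called lower. DTL, the receptor that delivers CDT1 to the CUL4-DDB1 ubiquitin ligase, had 3104, 2432 and 2591 counts in controls and 240, 237 and 358 with ILL. It fell by 3.21 (SE 0.11, adjusted p = 1.4e-18 from edgeR). FBXO5, an inhibitor of the anaphase-promoting complex that spares geminin from degradation, fell by 2.95, and SKP2, another ubiquitin ligase subunit that targets CDT1, by 2.22. The fifth gene called lower, MCMBP, which binds free MCM subunits, fell by 1.23. CUL4B, a scaffold of the CUL4-DDB1 ligase, was higher, with 2034, 1827 and 1708 counts in controls and 2508, 2331 and 2410 with ILL (log2 fold change 0.45, SE 0.06, adjusted p = 6.2e-07). The other scaffold, CUL4A, was more abundant (mean of 34.8 against 8.24 FPKM in controls) and lower with ILL, at -0.20 (SE 0.05, adjusted p = 8e-04 from edgeR). DDB1 was at -0.17 (SE 0.05, adjusted p = 0.0037 from edgeR).

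**Figure D5:**
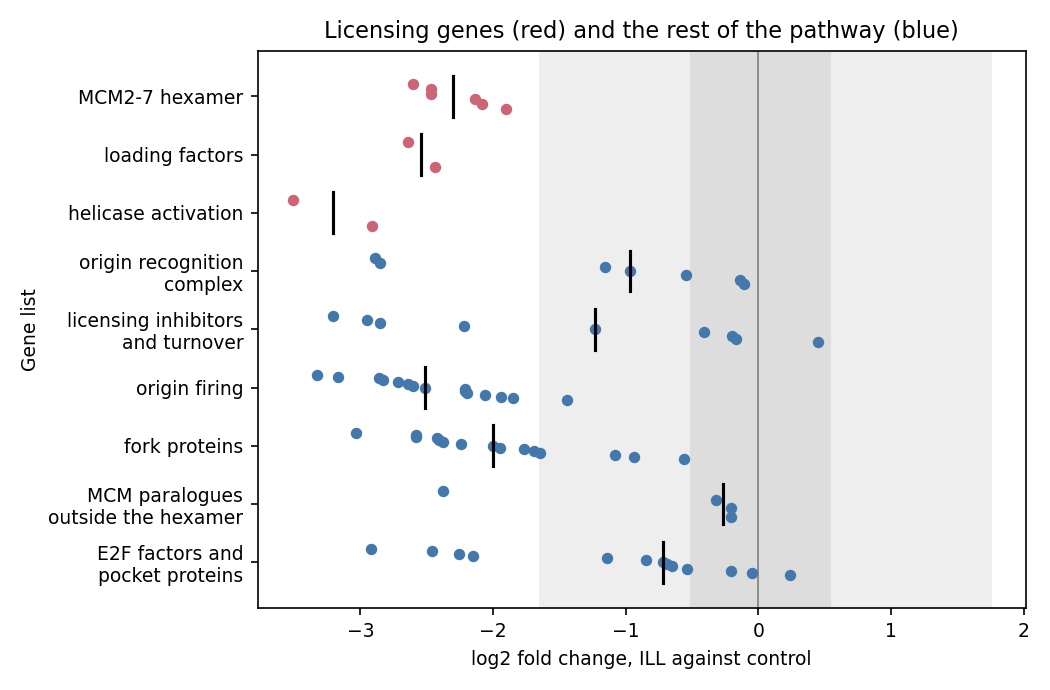
Log2 fold change with ILL against control for each gene of the licensing groups (red) and of 6 further pathway lists (blue), with black lines at list medians. Shaded bands hold the middle 50% (-0.51 to 0.54) and 90% (-1.65 to 1.75) of all genes tested, and every licensing and all but 1 origin firing gene lies to the left of the wider band.

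MCM8 and MCM9 resemble the ring subunits in sequence but act in recombination. Of the 4 genes in the list of MCM paralogues 1 was called lower, and the median was -0.27. The gene called was MCM8, with a log2 fold change of -2.38 (SE 0.08, adjusted p = 7.4e-19 from edgeR). MCM9 was at -0.21 (SE 0.13, adjusted p = 0.15), with 364, 387 and 353 counts in controls and 319, 258 and 335 with ILL. MCMDC2, a germline relative, had between 8 and 21 counts per library (log2 fold change -0.21, SE 0.55, adjusted p = 0.74).

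E2F factors and the pocket proteins that restrain them were also measured. Of 13 genes 5 were called lower, with a median of -0.72. The activator genes E2F2 and E2F1 fell by 2.92 and 2.15, and the repressor gene E2F8 by 2.46. Of the pocket proteins RBL1 fell by 2.26, and RB1 was at -0.05 (SE 0.06, adjusted p = 0.50 from edgeR). RBL2 was at 0.24 (SE 0.08, adjusted p = 0.0088 from edgeR), with 31.6, 32.3 and 38.3 CPM in controls and 38, 42.1 and 40.4 CPM with ILL, so that the groups overlapped. Its adjusted p was 0.053 to 0.14 in 6 of 15 alternatives, among them those without control replicate 1 (0.069) and without control replicate 2 (0.055). E2F6, a repressor that needs no pocket protein, was at -0.21 (adjusted p = 0.12, and 0.046 without control replicate 3).

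Because E2F motifs are known in licensing gene promoters, the RefSeq promoter windows of GRCh38.p14 (250 bases before to 50 after a transcription start) were searched on both strands. Windows were found for 8 of the 10 genes, MCM4 and MCM5 being the others. The E2F letters TTTCCCGC, TTTGGCGC, TTTGCCGC or TTTCGCGC were present in 6 of the 8 genes (MCM2, MCM3, MCM6, MCM7, CDC6 and CDT1) and in 3.99% of the 27305 genes with a window. The letters TTTGGCGG were added after the windows of CDC45 and MCM10 had been read, so their presence in these was fixed. They were also found in CDC6 and CDT1, and in 0.809% of all genes. CCAAT, the box bound by NF-Y, was present in 6 of the 8 and in 39.7% of all genes. A match describes letters and not a bound factor.

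E2F letters, the added TTTGGCGG included, are in capitals below. The 30 bases around the match nearest the start are shown for each of the 8 genes, 5′ to 3′ on the gene's strand. They run from chr3:127598402-127598431 (MCM2, plus strand), chr6:52284728-52284757 (MCM3, minus), chr2:135876511-135876540 (MCM6, minus) and chr7:100101388-100101417 (MCM7, minus). Those of the other genes run from chr17:40287875-40287904 (CDC6, plus), chr16:88803751-88803780 (CDT1, plus), chr22:19479884-19479913 (CDC45, plus) and chr10:13161552-13161581 (MCM10, plus).
MCM2: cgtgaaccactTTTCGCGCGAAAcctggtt
MCM3: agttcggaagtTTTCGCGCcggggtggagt
MCM6: ggtcaggTTTGGCGCGAAAtctccagctcc
MCM7: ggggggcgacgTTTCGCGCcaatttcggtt
CDC6: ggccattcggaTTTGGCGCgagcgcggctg
CDT1: cccGCGGGAAATTTGGCGGgaaccgcgccc
CDC45: aggagccgtgaTTTGGCGGgagtcttgacc
MCM10: ccggttggaatTTTGGCGGgttcagctgtg

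In MCM2 and MCM6 a match on each strand overlapped, so that the capitals run on past a single match. In CDT1 a match on the minus strand lay directly before a match on the plus strand. In MCM2, MCM3, MCM7, CDC6, MCM10 and CDC45 the match nearest the start began at positions 3, -4, -9, 8, 6 and -25. Position 1 is the first transcribed base and -1 the base before it. MCM7 and CDC45 have 3 windows each, and in each gene only 1 of them held E2F letters. The share of all promoters with a match at such positions was not counted. In CDT1 and MCM6 the nearest match began at -27 and -86, and the capitals of each begin with the overlapping or adjoining match before it. CDC45 and MCM10, genes with the added letters only, had the largest decreases of the 10, an order among 8 genes that was not tested. These letters were added after the windows of both had been read, and a link to the decrease was not tested.

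Genes outside the 10 with the most similar profile over the 6 libraries were found by the distance between centred log2 CPM values and the mean profile of the 10, among 12039 genes with a mean of at least 1 CPM. The nearest were MYBL2 (distance 0.0807), KPNA2 (0.106), RRM1 (0.107), PLK1 (0.122), HROB (0.139), SGO2 (0.150), TK1 (0.159), PRC1 (0.168), NCAPD3 (0.172) and CKAP2 (0.173). Their log2 fold changes lay between -2.64 (PRC1) and -2.40 (CKAP2), a closeness to the licensing genes that the choice by profile fixes. Of the 10 licensing genes themselves, MCM4 (0.126) and MCM7 (0.163) were closest to the mean profile and MCM10 (1.23) was farthest. MYBL2 encodes a transcription factor, and RRM1 and TK1 encode enzymes of deoxynucleotide supply. PLK1, SGO2, PRC1, NCAPD3 and CKAP2 encode proteins that act in mitosis, so that the nearest genes were not confined to DNA replication.

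All 10 are protein-coding genes, with positions from GENCODE release 29 on GRCh38, the build named in the submitters' processing notes. MCM2 lies on chromosome 3 from 127598223 to 127622436, MCM3 on chromosome 6 from 52264009 to 52284881 and MCM4 on chromosome 8 from 47960185 to 47978160. MCM5 lies on chromosome 22 from 35400063 to 35425430, MCM6 on chromosome 2 from 135839626 to 135876426 and MCM7 on chromosome 7 from 100092728 to 100101940. CDC6 is on chromosome 17 from 40287633 to 40304657, CDT1 on chromosome 16 from 88803213 to 88809258, CDC45 on chromosome 22 from 19479459 to 19520612 and MCM10 on chromosome 10 from 13161554 to 13211104. Exons of MCM7 share 392 bases with AP4M1 and those of MCM2 share 45 bases with TPRA1, each on the opposite strand, and whether reads were counted by strand is not given in the sources used here. AP4M1 had between 176 and 265 counts per library (log2 fold change -0.01, SE 0.17, adjusted p = 0.95), and its groups overlapped. TPRA1 rose by 1.16 (SE 0.07), opposite in direction to MCM2.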

How the data were processed

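The authors sequenced RNA of HCCC9810 cells in 3 control and 3 ILL libraries and deposited a table of raw counts and a table of FPKM, each keyed by gene symbol. The aligner, counting program and strand setting are not given in the sources used here, and the submitters' processing notes name GRCh38 and DESeq2. The deposited FPKM values match the count over the product of a gene length and the library total (100% of 88055 nonzero values within 0.1%). The gene lengths were solved from the same counts and FPKM values. The match therefore shows only that a constant length per gene fits its libraries. The lengths themselves, on which comparisons of FPKM levels between genes rest, were not checked against an annotation.

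Counts were filtered with filterByExpr, normalized by TMM and tested with edgeR's quasi-likelihood test (edgeR 4.0.16, R 4.3.3), with Benjamini-Hochberg adjustment over all 13066 genes tested. A gene was called at an adjusted p under 0.05 with a fold change beyond 2 in either direction (2 or 0.5), as in the study's methods. CPM values use TMM library sizes, except marker sums. The fits were tested on simulated data.

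The 10 genes, the pathway lists and the tests were chosen with earlier results of these data known. Named pathway genes are, per list, at most 4 called genes per direction with the largest change, genes at adjusted p under 0.05 against the list's median, and at most 4 of the most expressed genes above 0.05. MCMBP, CUL4A, DDB1, ORC2, ORC3, the single markers and the genes with overlapping exons were named after their values were seen. Alternatives were other scalings (size factors from DESeq2, or library totals alone), other filters (none, or a minimum of 10 counts per library), DESeq2 1.42.0, a replicate block, omission of single libraries, no fold change cutoff, limma 3.58.1 on log2 of FPKM plus 1 or 0.1, and CPM without length for ratios. The 10 genes had 171 or more counts in every library, and both counting error and the spread between libraries enter their precision. Some single marker genes are not reported here.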

Additional observations from a re-analysis of the deposited data

How the results depend on the processing

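All 10 licensing genes were called lower in each of the 16 alternatives, and their median log2 fold change stayed between -2.54 and -2.43, with -2.52 to -2.44 when single libraries were omitted. The number of other pathway genes called lower was 41 to 44, and 55 without the fold change cutoff, where 2 were higher. Among 28 named pathway genes, 27 kept direction and call in those of the 15 alternatives with a fold change cutoff that tested them. MCM9, MCMDC2 and E2F2 were not tested in all 15. By adjusted p alone, RBL2 lost its side of 0.05 in 6 alternatives (0.053 to 0.14), and ORC4 (0.018 and 0.013) and E2F6 (0.04 and 0.046) passed it with library size only and without control replicate 3. MCMDC2 changed sign, at 0.07 without ILL replicate 1 and between -0.43 and 0.07 over the 6 such fits, at counts of 21 or fewer. Of all genes, 1485 were called lower and 1635 higher, against 923 and 668 with limma on log2(FPKM + 1), 929 and 680 without its filter and 1247 and 909 on log2(FPKM + 0.1), which tested other numbers of genes, and 4821 were lower without the fold change cutoff. Scaling by library size moved the median of all genes from -0.0012 to -0.0702. The hexamer shares and the CDT1 to GMNN ratio kept their direction on both scales and without each library.

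For samples with the same replicate number, deviations from the group means were correlated at 0.0107, -0.0218 and -0.0179. Pairs with different numbers lay between -0.0128 and 0.0298, so that no pairing by number was seen. Whether samples with the same number were handled together is not given in the labels. With the replicate number as a block the call was unchanged for the 10 genes, all lower, and 42 other pathway genes were called lower. Of the pathway genes named, MCMDC2 had the lowest counts and the largest SE.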

Other observations

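MCM8 works with MCM9 and HROB in recombination repair, outside origin licensing. HROB had 411, 394 and 394 counts in the control libraries and 58, 68 and 73 with ILL, a log2 fold change of -2.52 (SE 0.17, adjusted p = 1e-12, edgeR), and was called lower as MCM8 was. HROB was among the genes listed above as nearest the mean licensing profile, a choice that fixes its fold change near that of the licensing genes. The ratio of MCM8 to MCM9 FPKM was 5.46, 4.83 and 4.95 in the control libraries and 1.12, 1.28 and 1.02 with ILL. The difference in the mean log2 ratio was -2.16, and the groups did not overlap (exact two-sided permutation test, p = 0.1, the smallest that 3 libraries against 3 allow). This ratio was chosen after the values of both genes had been seen.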
